A study of Mus musculus with 2 samples.

Results

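Cycling CD4 T cells were the barcodes that carried RNA of the T cell receptor complex, of Cd4 and of the proliferation genes Mki67 and Top2a, and 247 of 20364 barcodes passing quality met this rule, 200 of 10313 in one library and 47 of 10051 in the other. A member held at least 500 UMIs (unique molecular identifiers, each standing for 1 captured RNA molecule) with under 20% of them mitochondrial, at least 2 UMIs summed over Cd3d, Cd3e, Cd3g and Trac, at least 1 of Cd4, at least 2 summed over Mki67 and Top2a, and none of Cd8a, Cd8b1, Cd79a or C1qa. The raw counts of these genes chose the cells, so their levels describe the choice and are not findings.

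The cells came from lungs of C57 mice with metastases of B16F10, a mouse melanoma line, sorted as live CD45-positive, 7-AAD-negative cells from digested tumour tissue. In one library the B16F10 cells carried the IRF7 change C435A, named IRF7-C435A mutant in the labels, and in the other their IRF7 was wild-type. The libraries are named after these tumours, C435A tumour and WT tumour, and pairs of values below give C435A first. The genotype belongs to the tumour cells, the T cells are those of the C57 hosts, and the sources used here do not give the age of the mice, the number pooled or whether each tumour line was 1 clone. With 1 library per group no difference below has a replicate check, no p-value is given, and every interval is a 95% interval for counting error only.

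A CD4 T cell that meets its antigen on a class II MHC molecule enters the cell cycle and can become a helper cell, such as the interferon gamma producing T helper 1 type, or a regulatory cell marked by the transcription factor Foxp3. Entry into S phase is driven by E2F factors at genes of DNA replication, and the later wave of G2 and mitosis genes is switched by complexes that bind CHR elements, with the factor NF-Y at CCAAT boxes, in their promoters. Mki67 and Top2a belong to the later wave. Leaving the resting state goes along with loss of lymph node homing receptors such as Ccr7 and of the interleukin 7 receptor Il7r.

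Promoters of the G2 and mitosis genes are shown because these genes stood furthest apart between cycling and non-dividing cells in both libraries. RefSeq's promoter table on GRCm38.p6 held 34 of the 40 genes of that list and 28 of the 35 genes of the S phase list. Over the 250 bases before the start site, on either strand, CCAAT stood in 29 of 37 promoters of the G2 and mitosis list (78.4%), in 18 of 34 of the S phase list (52.9%) and in 33.8% of all 32851 promoters. The CHR core TTTGAA was found in 12 of the 37 (32.4%), in 4 of the 34 (11.8%) and in 16.0% of all promoters. The E2F words TTCCCGC or TTGGCGC showed the other order, 3 of 37 (8.11%), 13 of 34 (38.2%) and 5.62% of all. A match describes the letters of the window and no bound factor. The 120 bases before the start of 4 of these genes follow, 5′ to 3′ on the gene's own strand, with CCAAT and TTTGAA or their reverse complements ATTGG and TTCAAA in capitals. Ube2c (chr2:164769809-164769928, plus strand), which marks mitotic proteins for destruction, has both motifs, as does Cks1b (chr3:89418292-89418411, minus strand), a subunit of cyclin-dependent kinases. Ccnb2 (chr9:70421555-70421674, minus strand), a mitotic cyclin, has 3 CCAAT boxes in this window, and Birc5 (chr11:117849117-117849236, plus strand), the chromosomal passenger survivin, has neither word.
Ube2c: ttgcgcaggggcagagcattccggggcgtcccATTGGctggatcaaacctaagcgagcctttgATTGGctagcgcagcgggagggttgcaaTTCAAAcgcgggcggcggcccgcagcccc
Cks1b: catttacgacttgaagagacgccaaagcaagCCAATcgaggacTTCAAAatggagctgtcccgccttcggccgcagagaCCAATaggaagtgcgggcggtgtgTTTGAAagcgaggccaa
Ccnb2: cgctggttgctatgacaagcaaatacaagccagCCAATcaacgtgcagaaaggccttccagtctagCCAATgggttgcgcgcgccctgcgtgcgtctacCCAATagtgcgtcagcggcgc
Birc5: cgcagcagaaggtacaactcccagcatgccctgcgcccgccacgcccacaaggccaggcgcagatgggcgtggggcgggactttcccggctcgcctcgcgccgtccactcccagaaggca

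The members were deep cells. The 200 cells of the C435A tumour library held 1797154 UMIs, with a median of 8088.5 per cell and a range of 775 to 23928, and the 47 cells of the WT tumour library held 469898, with a median of 8926 and a range of 1997 to 24786. CD4 T cells with no UMI of Mki67 or Top2a, called non-dividing here, numbered 569 and 634 and had medians of 3022 and 2589.5. Of all barcodes, before the quality limits, 24 occurred in both libraries and none of these was a member.

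Of the genes that chose the cells, Cd3g had a UMI in 197 of 200 and 47 of 47 members, and Trac, the receptor's alpha constant region, in 199 and 45. Mki67 (chr7:135689784-135716361) had a median of 5 and 6 UMIs per member, and Top2a (chr11:98992943-99024189) of 7 and 5. Cd4 (chr6:124864692-124888221) had a median of 2 in both libraries, and 56 and 19 members carried a single Cd4 UMI. Cd4 UMIs also occurred in cells of another lineage: among cycling T cells with at least 5 Cd8a or Cd8b1 UMIs, 38 of 752 (5.05%) and 4 of 63 (6.35%) had one, and among B cells, at a lower depth, 37 of 2209 (1.67%) and 23 of 2698 (0.852%). Icos (chr1:60977927-61000320), the costimulatory receptor of activated CD4 T cells that the rule did not use, had a UMI in 136 of 200 members (68%) and 30 of 47 (63.8%). Thinned to 2000 UMIs per cell, the shares were 25.4% and 30.4%, against 12.5% and 7.41% of cycling CD8 T cells and 0.076% and 0.0742% of B cells.

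At the rule's edge, 19 and 14 members had exactly 2 UMIs of Mki67 and Top2a together, 12 and 2 had 3, and 169 and 31 had more. A further 104 and 40 CD4 T cells had 1 such UMI and fell just outside. Cells at the edge thus made up 14 of 47 members of the WT tumour library and 19 of 200 of the C435A tumour library.

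Some members also carried RNA of other cell types, a larger share of them in the WT tumour library. At least 20 UMIs of macrophage, dendritic, neutrophil, B, NK, plasma or melanoma cell markers were found in 29 of 200 members (14.5%) and 16 of 47 (34%), against 55 of 569 (9.67%) and 38 of 634 (5.99%) non-dividing CD4 T cells. These members were deeper, with medians of 13908 and 14032 UMIs against 7575 and 7945 for the rest. Macrophage and monocyte markers reached 20 UMIs in 22 and 9 members and dendritic markers in 6 and 5. The summed level of 6 macrophage and monocyte markers was 2083 and 5088 CPM over members, where CPM is a count scaled to the class total, and that of 9 dendritic markers 724 and 4582. C1qa was at 0 by the rule, the B cell genes Cd79a (by the rule) and Ebf1 were at 0 in both libraries, and so were the dendritic markers Clec9a and Siglech. Results are therefore given also for the 171 and 31 members under 20 such UMIs, called the cells low in other markers, a limit set after the data were seen. The part of this RNA in the differences was otherwise not tested.

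Cycling cells made up a larger share of CD4 T cells in the C435A tumour library. Of 873 CD4 T cells 200 were cycling, 22.9% (Clopper-Pearson interval 20.2 to 25.8), and of 721 in the WT tumour library 47 were, 6.52% (4.83 to 8.57). The difference was 16.4 percentage points (Newcombe interval 13.0 to 19.7). CD4 T cells as a whole were 8.47% and 7.17% of barcodes, so the libraries differed less in how many CD4 T cells they held than in how many of these were cycling. After the whole rule was applied to cells thinned to 2000 UMIs, which left out 103 and 142 shallower CD4 T cells, 80 of 560 (14.3%) and 16 of 468 (3.42%) were cycling. Among cells low in other markers the shares were 171 of 773 (22.1%) and 31 of 662 (4.68%). CD8 T cells showed a gap in the same direction, 799 of 2379 (33.6%) and 82 of 1981 (4.14%).

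**Figure D1:**
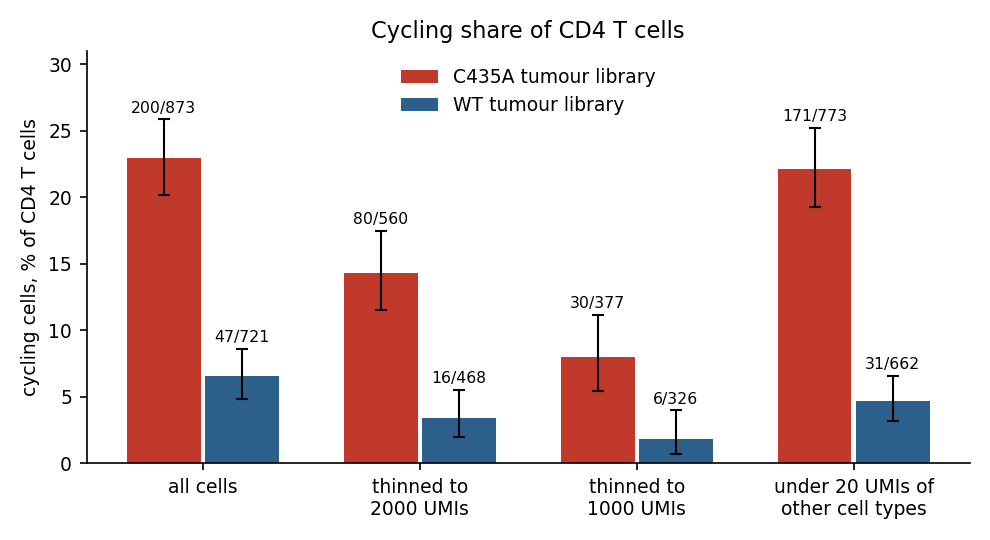
Cycling cells as a percent of CD4 T cells in each library, for all cells, after thinning and for cells with under 20 UMIs of other cell types; bars are shares, whiskers 95% Clopper-Pearson intervals for counting error, and the fractions above them are cells. The C435A tumour library is higher in all 4 settings, 22.9% against 6.52% for all cells and 7.96% against 1.84% at 1000 UMIs.

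Both stages of the cycle were present among the members. The 35 S phase genes summed to a median of 53 and 35 UMIs per member (up to 227 and 185) and the 40 G2 and mitosis genes to 85.5 and 69 (up to 313 and 234). The G2 and mitosis sum was the larger one in 119 of 200 members (59.5%, interval 52.3 to 66.4) and in 32 of 47 (68.1%, 52.9 to 80.9), and the S phase sum in 78 and 12. The intervals overlap, and at 2000 UMIs per cell the shares were 60.9% and 63.0%. Both sums were under 5 UMIs in 10 and 7 members, so these cells showed little cell cycle RNA beyond the genes that chose them. As a share of all UMIs, the S phase list took 0.660% and 0.452% in members against 0.0989% and 0.0667% in non-dividing cells, and the G2 and mitosis list 1.02% and 0.851% against 0.0653% and 0.0498%. Some cells called non-dividing held such RNA too, with at least 10 S phase UMIs in 30 of 569 and 14 of 634. Both sums were under 5 UMIs in 424 and 538 of them. The name thus states only that no Mki67 or Top2a UMI was found, and the effect on the ratios was not tested. The rule requires genes of the later wave, so a larger G2 and mitosis sum is in part built into the choice of cells.

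**Figure D2:**
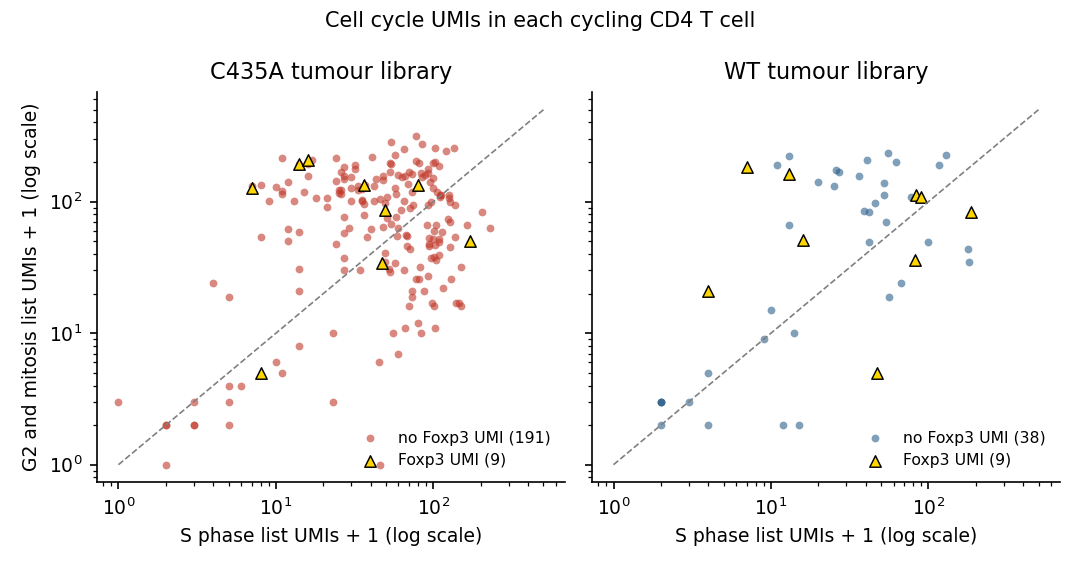
Each point is 1 cycling CD4 T cell, placed by its UMIs of 35 S phase genes (x axis) and of 40 G2 and mitosis genes (y axis), each plus 1 on log scales; triangles are cells with a Foxp3 UMI and the dashed line marks equal sums. In both libraries cells spread from S phase rich to mitosis rich, with 119 of 200 and 32 of 47 above the line, and a few cells near the origin.

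Against non-dividing CD4 T cells of the same library, members were higher by at least 2-fold in both libraries for 231 of 6072 genes tested (3.8%), where a gene was tested with at least 50 UMIs over both classes in each library, and lower for 122 (2.01%). Since Mki67 and Top2a chose the cells, the counts of cell cycle genes describe what came along with them. The median log2 ratio over all genes was -0.03 and 0.07. TMM and median-ratio scaling moved all ratios of the WT tumour library by 0.15 and 0.12. In cells low in other markers 215 of 4863 genes were higher (4.42%) and 169 lower (3.48%).

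Of 35 S phase genes 22 were tested and were higher, with medians of 2.49 and 2.67 on the log2 scale, and of 40 G2 and mitosis genes 29 were tested and 28 were higher, with medians of 5.10 and 6.29. The other 13 and 11 did not reach 50 UMIs in each library, and since a gene high in members reaches that limit through them, these counts and medians are descriptions only. The condensin subunit Smc4, tested and not past 2-fold, had ratios of 1.36 and 0.99. Birc5 stood at 810 and 709 CPM in members and 19.3 and 3.92 CPM in non-dividing cells, log2 ratios of 5.39 and 7.5. Ube2c stood at 1013 and 838.5 CPM in members and 30.4 and 5.88 in non-dividing cells (5.06 and 7.16), and Nusap1, which bundles spindle microtubules, had ratios of 7.26 and 8.34. Of S phase genes, Rrm2, which makes deoxynucleotides, had ratios of 5.77 and 5.72, Tyms, thymidylate synthase, 3.78 and 4.05, and the replication clamp Pcna 1.98 and 1.56. Pcna, present at 132 and 129 CPM in non-dividing cells, thus differed less than Rrm2 between the classes.

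Genes that feed growth were higher in part. Of 11 nucleotide and one-carbon synthesis genes tested, 3 were higher, all of serine and folate metabolism: Phgdh (1.56 and 1.64), Psat1 (1.80 and 2.08) and Mthfd2 (1.06 and 1.18). The transferrin receptor Tfrc, which brings in iron, was higher by 1.13 and 1.15. None of 13 glycolysis genes (medians 0.47 and 0.47) and none of 22 nuclear oxidative phosphorylation genes (0.34 and 0.38) passed 2-fold in both libraries. Of the S100 and effector cytoskeleton list 2 of 14 were higher, the galectin Lgals1 (1.04 and 2.23) and Anxa2 (1.22 and 1.37), and 6 of 13 among cells low in other markers.

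Genes of resting T cells were lower in members. Of 14 naive and memory genes 9 were lower, with list medians of -1.38 and -1.12: Il7r stood at 34.5 and 149 CPM in members and 327 and 437.5 in non-dividing cells (-3.24 and -1.55), the chromatin organizer Satb1 had ratios of -2.31 and -1.49, Lef1 -1.34 and -1.55 and Igfbp4 -6.03 and -2.41. The survival gene Bcl2 was lower (-2.33 and -1.03), as was the antiproliferative Btg1 (-1.62 and -1.53). Of 18 heat shock and immediate early genes 4 were lower, among them Hspa1a (-1.73 and -1.88) and Jun (-1.60 and -1.77). Ly6c1 had ratios of -5.68 and -4.15, resting on 2 and 3 UMIs in members. The chemokine genes Ccl17 and Ccl22 ranked among the lowest too (-3.64 and -6.13, -2.14 and -4.86), but among cells low in other markers the WT ratios rested on 1 UMI in members and 2 and 1 in non-dividing cells, with intervals that span 0.

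Type I interferon response genes, the class that IRF7 acts on, were lower in members for 7 of 27 tested, with medians of -0.62 and -0.76. Irf7 itself stood at 29.5 and 17 CPM in members and 63.2 and 55.4 CPM in non-dividing cells (-1.10 and -1.70), and Ifit1 had ratios of -2.36 and -4.58, the latter on 1 UMI in members. In cells low in other markers 6 of 22 were lower. None of the 27 was past 2-fold higher in both libraries.

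Of the cytotoxic list none of the 8 genes tested passed 2-fold in both libraries, with medians of -0.67 and -0.66. The granzyme genes Gzmb (0.87 and 0.04) and Gzmk (0.81 and -0.54) had too few UMIs to be among the 8. Among cells low in other markers 5 genes were tested and none passed 2-fold in both libraries. Their medians were -0.70 and -0.04, with 4 and 3 of the 5 below 0. Nkg7, a granule protein gene, lay above 0 there (0.62 and 1.99). The untested Gzmb had ratios of 1.06 and 0.91 in those cells, the latter on 5 UMIs in members. Icos took different directions, with 210 and 228 CPM in members against 242 and 105 CPM in non-dividing cells, ratios of -0.20 and 1.12, and the difference between these ratios was not tested.

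**Figure D3:**
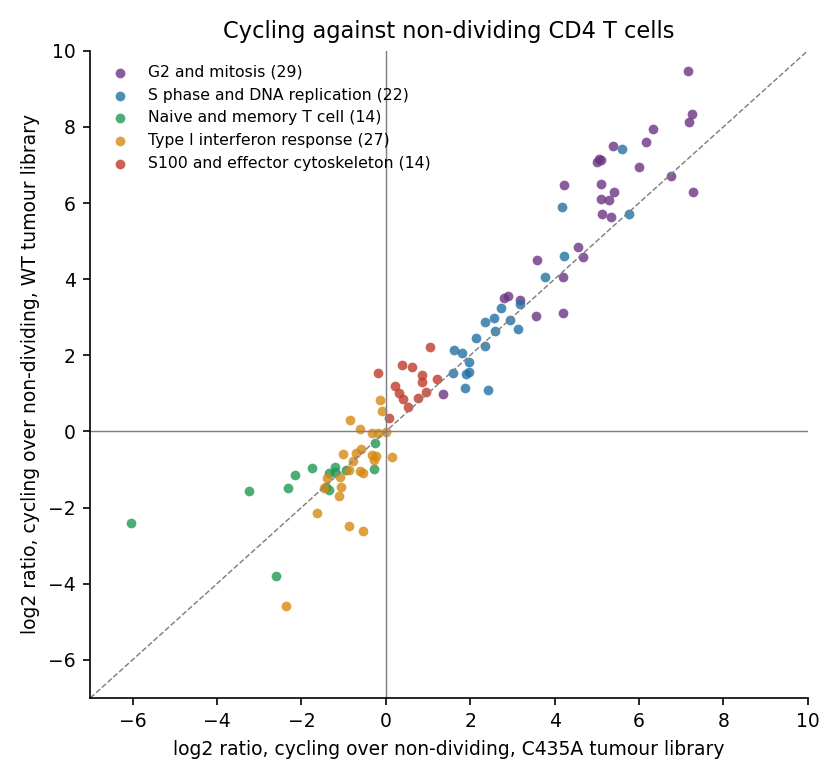
Log2 ratio of CPM in cycling over non-dividing CD4 T cells, C435A tumour library on the x axis and WT tumour library on the y axis, 1 point per tested gene of 5 lists (number in the key); the dashed line marks equal ratios. G2 and mitosis genes lie at the upper right around medians of 5.10 and 6.29, S phase genes below them, and naive and memory and type I interferon genes mostly at the lower left.

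Between the libraries, members of the C435A tumour library carried more RNA of cytotoxic effector genes and less of naive and memory and of regulatory genes. Of 5856 genes tested, those whose 2 sums together reached 50 UMIs, 191 were at least 2-fold higher in the C435A tumour library (3.26%) and 135 lower (2.31%), with a median of 0.06 over all genes. In cells low in other markers 216 of 4644 were higher (4.65%) and 78 lower (1.68%), and 91 of the 191 and 27 of the 135 were among these, so most single genes of the full comparison were not called there.

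Of the 8 cytotoxic genes tested 6 were higher, with a list median of 1.81, and the same 6 of 8 were higher among cells low in other markers (1.80). Gzmb, the protease granzyme B, had 618 UMIs in 105 of 200 members and 9 UMIs in 5 of 47, 344 and 19.2 CPM, a log2 ratio of 4.17 (3.23 to 5.30). At 2000 UMIs per cell it was found in 67 of 197 members (34%) and 1 of 46 (2.17%), and in 2.51% and 1.11% of B cells, so that in the WT tumour library the members' share was near that of cells that do not make it. Gzmk, another granzyme, had 157 UMIs in 73 members against 3 UMIs in 3, a ratio of 3.77 (2.20 to 6.07). Over members with at least 2 Cd4 UMIs (144 and 28 cells, a limit added after the data were seen) the list median was 2.09. The Gzmb ratio there was 5.75 (3.89 to 8.80), on 510 UMIs against 2.

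Ccl5, a chemokine of effector cells, stood at 2332 and 385 CPM (2.60, 2.38 to 2.82), and had a UMI in 118 of 197 members (59.9%) and 9 of 46 (19.6%) at 2000 UMIs per cell. Without thinning, 29.5% and 9.56% of B cells, with median depths of 2253 and 1997.5 UMIs, had one too. Nkg7, a granule protein, stood at 980 and 349 CPM (1.49, 1.26 to 1.73). Nkg7 was found in 146 of 197 members (74.1%) and 13 of 46 (28.3%) at 2000 UMIs per cell, and in 5.62% and 2.23% of B cells. Gzma had a ratio of 2.12 (1.54 to 2.77), but its 25 UMIs in the WT tumour library came from 3 cells, and its ratio was 4.26 among cells low in other markers, on 3 UMIs in 1 cell of that library (2.70 to 6.55). Ctsw, a cathepsin of cytotoxic cells, had a ratio of 1.21, and Cst7 (0.43) and Klrd1 (0.65) did not pass 2-fold. Non-dividing CD4 T cells also differed between the libraries in these genes, with a list median of 2.29 and Gzmb at 188 and 18.6 CPM (3.34). Cycling CD8 T cells had a median of 0.69 over the same 8 genes.

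Further genes stood apart. Plac8, a small protein of activated lymphocytes and myeloid cells, had 1493 UMIs in 150 members against 42 in 16 (3.22, 2.77 to 3.69), Dtx1, a Notch pathway gene, 210 UMIs in 105 against 10 in 8 (2.46, 1.55 to 3.54) and Ctla2a 478 UMIs in 107 against 33 in 14 (1.92). Ccr9, a gut homing receptor, had 73 UMIs in 27 members against 1 UMI (4.25, 1.73 to 9.58). Fhl2, a LIM domain protein, had 60 UMIs in 47 members and none in the WT tumour library, at least 2.39 higher on the log2 scale with the floor of 3 counts over the group. Fscn1, Mgp and Apol7c ranked as high, but their 105, 80 and 73 UMIs lay in 2, 1 and 2 members. Non-dividing CD4 T cells low in other markers differed between the libraries too: Plac8 3.47, Ctla2a 2.35, Ccr9 2.63, Fhl2 3.14 and Dtx1 0.43. In cycling CD8 T cells low in other markers these ratios were 0.87, 0.65, -0.56, 0.52 and 1.03.

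The T helper 1 list was higher for 5 of 13 genes tested, with a median of 0.87, and these calls moved with the mixed cells. Tbx21, the transcription factor T-bet, had 145 UMIs in 89 members and 16 in 8 (1.24, 0.50 to 2.09), and Ifng 179 in 64 and 20 in 11 (1.23, 0.56 to 1.97). The receptors Cxcr3 and Cxcr6, which guide T cells into inflamed tissue, had ratios of 1.17 (0.82 to 1.55) and 1.28 (0.81 to 1.79). Among cells low in other markers all 4 were under 2-fold, with 0.88 for Tbx21, 0.76 for Ifng, 0.90 for Cxcr3 and 0.93 for Cxcr6, while the list median was 0.88. Non-dividing cells differed more, with a list median of 1.55. Of the other helper lists, Gata3, the only T helper 2 gene tested, had a ratio of -0.12, and Rora, the only T helper 17 gene tested, 0.40.

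S100a4, a calcium-binding protein of effector and memory cells, had 3912 UMIs in 183 members against 356 in 29 (1.52, 1.37 to 1.68) and was the only 1 of 14 genes of its list past 2-fold. S100a6 had a ratio of 0.90. Among cells low in other markers the S100a4 ratio was 1.68, against 2.88 in non-dividing CD4 T cells and 1.83 in cycling CD8 T cells. The list median over all members was 0.29, against 0.90 and 0.59 in those 2 classes. Among cells low in other markers these medians were 0.55, 1.73 and 0.56, and 2 of 14 genes were past 2-fold in members, S100a4 and Lgals3.

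Of the naive and memory list 3 of 11 tested genes were lower, with a median of -0.69, and 6 of 11 among cells low in other markers (-1.14). Over the same 11 genes the median was -0.60 in non-dividing CD4 T cells and -1.09 in cycling CD8 T cells. Il7r had 62 UMIs in 43 of 200 members and 70 in 25 of 47 (-2.11, -2.63 to -1.60), and Satb1 110 in 64 and 88 in 25 (-1.61, -2.03 to -1.19). At 2000 UMIs per cell Il7r was found in 4.57% and 32.6% of members. Ccr7 (-0.80), Lef1 (-0.46) and Tcf7 (-0.26) did not pass 2-fold. Igfbp4, under the limit of 50 UMIs, had 3 UMIs in 1 member against 31 in 11. Bcl2 was past 2-fold lower too (-2.0, -2.60 to -1.39).

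Counted per cell, the members of the libraries fell into different mixtures. Cells with a UMI of Gzmb, Gzmk or Nkg7 and none of Ccr7 or Il7r were 129 of 200 (64.5%) and 8 of 47 (17%), and cells with the reverse pattern 7 (3.5%) and 20 (42.6%). These 5 genes were picked after their values were seen. Both kinds of RNA were found in 54 (27%) and 14 (29.8%). Among cells low in other markers the effector pattern held 116 of 171 (67.8%) and 6 of 31 (19.4%), and the naive pattern 5 (2.92%) and 14 (45.2%). At 2000 UMIs per cell the effector pattern held 72.6% and 17.4% of members, against 36.8% and 5.63% of non-dividing CD4 T cells, and the naive pattern 2.03% and 30.4% against 28.5% and 57.7%.

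**Figure D4:**
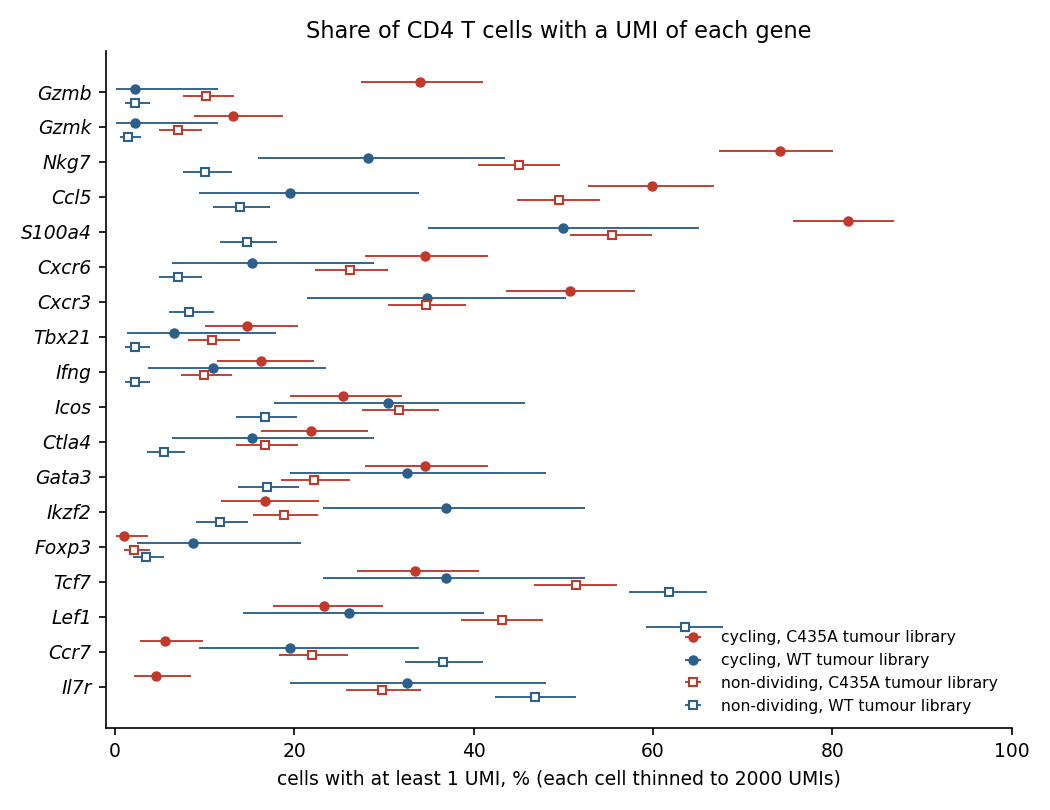
Percent of cycling (filled circles) and non-dividing (open squares) CD4 T cells with at least 1 UMI of each gene after thinning every cell to 2000 UMIs; lines are 95% Clopper-Pearson intervals for counting error. Gzmb, Nkg7 and S100a4 are most widespread in cycling cells of the C435A tumour library, 34%, 74.1% and 81.7%, and Ccr7 and Il7r least widespread there.

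Foxp3 (chrX:7573644-7595245), the lineage factor of regulatory T cells, had a UMI in 9 of 200 members (4.5%, interval 2.08 to 8.37) and in 9 of 47 (19.1%, 9.15 to 33.3), a difference of -14.6 points (-28.2 to -5.11). At least 2 Foxp3 UMIs were found in 3 and 6 members. The background was low: 0 of 799 and 1 of 82 cycling CD8 T cells, at medians of 9932 and 8448 UMIs, and 0.0905% and 0.0741% of B cells, at 2253 and 1997.5, had one. With the floor of 3 counts, 0 of 799 allows a share of up to 0.375% of cells with a UMI. Among cells low in other markers the shares were 6 of 171 (3.51%) and 4 of 31 (12.9%), and at 2000 UMIs per cell 2 of 197 (1.02%) and 4 of 46 (8.70%). Without thinning, non-dividing CD4 T cells had 3.51% and 4.89%, at medians of 3022 and 2589.5 UMIs against 8088.5 and 8926 in members. The unthinned shares of the libraries thus lay further apart among cycling than among non-dividing cells. The depths of the classes are unlike, and this difference was not tested.

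The Foxp3-positive cells carried other regulatory genes. Ikzf2, the factor Helios, had a UMI in 9 of 9 and 7 of 9 of them against 72 of 191 and 16 of 38 of the Foxp3-negative members, log2 ratios of 2.44 and 2.07, and Ctla4, an inhibitory receptor, in 9 and 8 against 99 and 15 (1.82 and 1.22). Il2ra, the interleukin 2 receptor alpha chain, was found in 5 and 4 against 11 and 2 (5.36 and 1.10). Gzmb occurred in 4 and 1 of them against 101 and 4, and Nkg7 had ratios of -2.22 and -1.75. Their small number lets single cells weigh heavily. In the plot of cell cycle sums they lie among the other members.

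Of the 8 regulatory T cell genes tested between the libraries 4 were lower in the C435A tumour library, Il2ra (-1.76), Ikzf2 (-1.18, -1.45 to -0.90), Nt5e (-1.23) and Capg (-1.56), with a list median of -1.02. Over the same 8 genes the median was 0.02 in non-dividing CD4 T cells and -1.11 in cycling CD8 T cells, 7 of 8 lying below 0 there, so a gap of this size was also seen outside the CD4 cells. Foxp3, with 21 and 22 UMIs, was under the limit of 50 (-2.0, -2.94 to -1.07). Izumo1r, the folate receptor 4 of regulatory and follicular cells, had 83 UMIs in 39 members against 84 in 25 (-1.95, -2.41 to -1.5). Without the Foxp3-positive cells the ratios were -0.77 for Ikzf2, -1.53 for Capg and -2.08 for Izumo1r, and 4.48 for Gzmb. Capg and Izumo1r therefore differed about as much among Foxp3-negative members, and Ikzf2 by less than 2-fold.

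The cell cycle lists, which the rule selects on, lay mostly above 0 between the libraries. All 35 S phase genes had a ratio above 0, with a median of 0.45, and 4 passed 2-fold: the helicase subunit Mcm4, Ung, Chaf1b and Clspn. Of 40 G2 and mitosis genes 33 lay above 0 (0.25), and none passed 2-fold. The counts were 28 of 34 and 26 of 40 (0.41 and 0.19) among cells low in other markers. Cycling CD8 T cells had medians of 0.39 and 0.54. Over the same genes non-dividing CD4 T cells had larger medians than members, 0.73 for the S phase list (31 above 0, 4 below) and 1.04 for the G2 and mitosis list (31 above 0, 7 below).

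Few genes of the interferon and metabolic lists passed 2-fold. Type I interferon response genes had a median of -0.03, with 13 of 20 below 0 and 1 past 2-fold lower (Irf9). The median was -0.35 among cells low in other markers, with 12 of 14 below 0 and Isg15 lower, and in cycling CD8 T cells it was -0.54, with 18 of 20 below 0. Interferon gamma response genes had a median of 0.16, with 0 of 12 past 2-fold in either direction. Glycolysis (0.21, 0 of 13) and oxidative phosphorylation (0.04, 0 of 22) had none past 2-fold. Icos (-0.11, -0.43 to 0.21) and Ctla4 (-0.33, -0.69 to 0.05) had intervals that span 0, while among cells low in other markers that of Ctla4 did not (-0.56, -0.98 to -0.11).

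The genes lowest in the C435A tumour library were mostly those of other cell types. H2-Ab1, a class II MHC chain, had 237 UMIs in 41 members against 483 in 16 (-2.96), Cd74, the class II invariant chain, -2.75, the neutrophil gene S100a9 -3.38 and the chemokine Cxcl2 -3.94, the last on 60 UMIs in 3 cells of the WT tumour library. Among cells low in other markers the ratios were -0.23 for H2-Ab1, -0.51 for Cd74 and -1.16 for S100a9, and that of H2-Eb1 was 0.20 (-1.17 to 1.92) after -2.61 over all members. Ctsk, Wfdc17, Pltp, Il1b, H2-Aa, S100a8 and Ccl9 completed the 12 lowest.

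**Figure D5:**
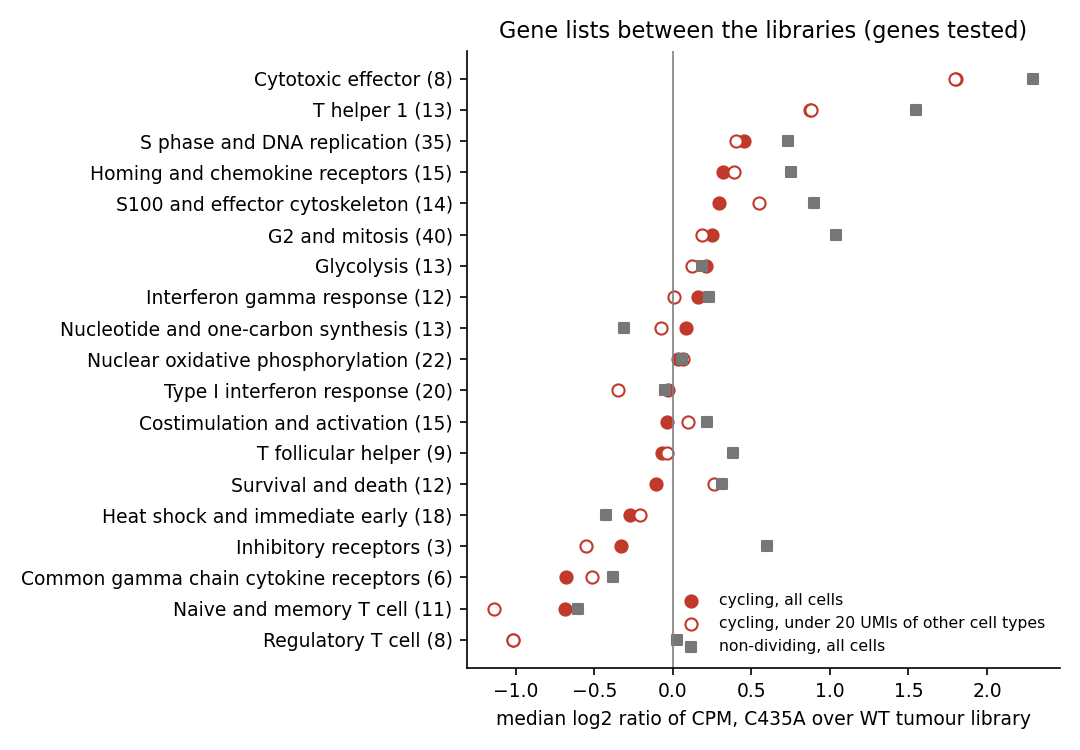
Median log2 ratio of CPM, C435A over WT tumour library, for the tested genes of 19 lists (number in parentheses); filled circles are cycling CD4 T cells, open circles those with under 20 UMIs of other cell types, squares non-dividing CD4 T cells for the same genes. The cytotoxic list lies highest (1.81) and the regulatory list lowest (-1.02) among the filled circles, and the naive and memory list lowest (-1.14) among the open circles; for the regulatory list the non-dividing cells lie at 0.02.

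Cycling CD8 T cells, chosen by the mirrored rule (799 and 82 cells), were the closest comparison. Cycling CD4 T cells were higher for 32 of 4214 genes in both libraries (0.759%) and lower for 40 (0.949%), Cd4, Cd8a and Cd8b1 being part of the rule. In cells low in other markers 19 of 2341 were higher (0.812%) and 17 lower (0.726%). Scaling moved the ratios of the C435A tumour library by 0.10 and 0.11. None of 29 S phase genes (medians -0.03 and -0.12) and none of 38 G2 and mitosis genes (0.30 and 0.55) passed 2-fold in both libraries. The G2 and mitosis genes lay above 0 for 37 of 38 and 38 of 38, and the S phase genes for 13 and 9 of 29, against medians of 0.04 and 0.01 over all genes. For cells low in other markers it was 31 and 29 of 31 G2 and mitosis genes.

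Higher in the CD4 cells were the helper factors Maf, with 339 and 240.5 CPM against 13.4 and 21.9 (4.66 and 3.45), and Gata3 (1.48 and 1.81), and the receptors Tnfrsf4 (6.37 and 3.15), Icos (1.62 and 2.82), Ctla4 (1.89 and 1.90), Cd5 (1.67 and 1.56) and Izumo1r (3.53 and 2.37). Of 7 regulatory list genes 6 were higher, with medians of 1.78 and 1.24, and 1 of 3 among cells low in other markers, where fewer genes reached 50 UMIs. Ly6a (1.64 and 2.13), Ass1 (1.72 and 1.86), Trib2 (2.04 and 1.88) and the interferon-induced Ifi27l2a (1.81 and 1.34) completed the named genes.

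The cytotoxic genes were lower in the CD4 cells for 11 of 12 tested, with medians of -1.89 and -3.32, and for 8 of 9 among cells low in other markers. Gzma stood at 231.5 and 53.2 CPM against 3904 and 2012 (-4.08 and -5.24), Eomes, a CD8 and NK cell factor, at 2.23 and 2.13 against 100 and 77.4 (-5.50 and -5.18), and Klrd1 had ratios of -2.90 and -3.06. Gzmb had ratios of -1.75 and -3.63, and its level in cycling CD4 T cells of the C435A tumour library, 344 CPM, lay above that of cycling CD8 T cells of the WT tumour library, 238 CPM. These levels were 376 and 364 CPM among cells low in other markers. The melanoma genes Dct (-4.87 and -4.45), Tyrp1 and Pmel and the genes Ptgds, Syt4, Cryab and Serpinh1 were lower too, but Dct had 163 and 560 CPM in the cycling CD8 cells and its ratios were 0.28 (-0.95 to 1.35) and 0.32 (-1.31 to 1.86) among cells low in other markers.

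T cell receptor beta variable segments were sparse. Exactly 1 Trbv segment was seen in 41 of 200 and 8 of 47 members, and none in 156 and 39. Among the 41 the most frequent, Trbv2, was seen in 6 cells and Trbv3 in 5, and among the 8 Trbv16 in 2. At this depth of receptor RNA the spread of clones among the members cannot be read.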

How the data were processed

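The values are counts of UMIs, deposited by the authors as 1 gene-by-barcode matrix per library. Per the file headers Cell Ranger 7.2.0 made them, and per the submitters' processing notes the build was GRCm38; the sources used here do not give the annotation, the intron setting or the cell calling rule. Per the labels' protocols both BD Rhapsody and 10x Chromium capture are named, so the platform is uncertain, and the labels call the sorted CD45-positive cells melanoma cells. There were 55357 features, 10373 and 10156 barcodes and 59615672 and 54934397 UMIs; 60 and 105 barcodes failed quality. No doublets were removed beyond the rule.

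Per library, the UMIs of all cells in a class were added up and scaled to the class total (CPM). Log2 ratios have exact conditional intervals, with a count of 0 set to 3, and genes with at least 50 UMIs were called at 2-fold, in both libraries for comparisons within a library. Shares have Clopper-Pearson and differences Newcombe intervals. Thinning drew 2000 or 1000 UMIs per cell, leaving out shallower cells (3 and 1 members at 2000). The 12 highest and 12 lowest genes by the interval bound nearest 0, the rule genes and members of 21 lists are named. The members, lists and rules were chosen with earlier results of these data known. Gene positions are from GENCODE M21 on GRCm38 and promoters from RefSeq. The ratio script was tested on simulated data. Alternatives were scaling factors from edgeR 4.0.16 (TMM) and DESeq2 1.42.0 (median ratio), other thresholds, thinning, Scrublet in scanpy 1.11.5, and cells with UMIs of other types or 1 Cd4 UMI left out. Python 3.11.15, scipy 1.17.1 and R 4.3.3 were used. Some genes counted in the lists are not reported by name here.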

Additional observations from a re-analysis of the deposited data

Results flagged for a closer look

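For 9 of the named genes the ratio of cycling over non-dividing CD4 T cells took opposite directions in the libraries, with intervals on opposite sides of 0; the difference between libraries was not tested. For Icos the log2 ratio was -0.20 for C435A tumours and 1.12 for WT tumours, a difference of -1.32, and -0.21 and 1.36 among cells with under 20 UMIs of other cell types. For Ifi27l2a it was -0.13 and 0.81, a difference of -0.947, and -0.08 and 1.14 among those cells. The C435A intervals among those cells spanned 0, -0.42 to 0.00039 for Icos and -0.17 to 0.012 for Ifi27l2a. Opposite directions are therefore not shown there for these 2 genes. The other 7 are genes of antigen-presenting and myeloid cells: the differences were -1.97 for Cd74, -1.81 for H2-Aa, -2.03 for H2-Ab1, -2.08 for H2-Eb1, -2.06 for Ccl9, -4.7 for Cxcl2 and -2.57 for Il1b. Among cells with under 20 UMIs of other cell types the ratios were -0.66 and -0.88 for Cd74, -0.07 and -0.58 for H2-Ab1 and -0.55 and -0.91 for H2-Eb1, so these 3 no longer took opposite directions. They were -0.49 and 0.25 for H2-Aa, -1.07 and 1.45 for Ccl9 and -1.62 and 1.51 for Il1b, those of Ccl9 and Il1b resting on 2 to 6 UMIs in members. For Cxcl2 the ratio was 0.25 for C435A tumours, and with 0 UMIs in members for WT tumours it had no direction there.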

How the results depend on the processing

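No paired analysis was possible because each group has 1 library, and no library could be left out in turn. The difference in the cycling share of CD4 T cells, 16.4 points, kept its sign in every alternative that left members in both libraries. It was 22.8 with a threshold of 1 UMI of Mki67 and Top2a and 21.0 with at least 2 Cd4 UMIs. With the rule after thinning to 2000 and 1000 UMIs it was 10.9 and 6.12. Leaving out members with 2 or more UMIs of other cell types gave 2.75, but this removed 176 of 200 and 47 of 47 members. With no WT member left that value could not be negative, and the gene comparisons could not be run. Counts of genes past the limit are given as higher and lower between libraries, against non-dividing cells and against cycling CD8 T cells. At least 20 UMIs gave 467 and 412, 393 and 238, 63 and 80; at least 1 UMI gave 709 and 1988, 805 and 353, 211 and 187; a limit of 1.5-fold gave 694 and 474, 515 and 457, 101 and 64. A threshold of 1 UMI left 61 genes lower than in non-dividing cells, and at least 2 Cd4 UMIs 122 higher and 42 lower. With cells of at least 20 UMIs of other types left out, 78 were lower between libraries, and 19 higher and 17 lower against CD8 cells; fewer genes were then tested.

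Alternatives that changed only the UMI limit or the fold limit for calling a gene could not change the ratio of a single gene. The fold limit could not change a list median either. Such values were fixed in advance and count as unchanged here, so the number of unchanged values overstates stability. Of the values for single genes and lists under the alternatives, 2730 stayed within their counting interval (genes) or 1.5-fold (lists). Another 171 moved further and 14 changed direction. With those mixed cells left out these were, in log2, H2-Eb1 between libraries (0.20), Ccl17 (1.68) and Ccl22 (2.68) against non-dividing cells in the WT tumour library and, against CD8 cells, Dct (0.28 and 0.32), Pmel (0.19 and 1.25), Syt4 (0.70) and Serpinh1 (2.08) in the C435A tumour library and Tyrp1 (0.25) in the WT tumour library. The intervals of these 10 values spanned 0, on 1 to 31 UMIs in members, so a change of direction is not shown. Dct was 0.35 in the C435A tumour library with a threshold of 1 UMI. Scrublet removal turned Cxcl2 between libraries (0.78, on 7 and 1 UMIs) and the cytotoxic median against non-dividing cells in the WT tumour library (0.015), and at least 2 Cd4 UMIs turned the T helper 1 median there (-0.080). Except where cells were removed by construction, the cause was not tested. With 47 members in the WT tumour library, genes under about 50 UMIs and cell shares within its intervals are limited by depth.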
